A study of Homo sapiens with 24 samples.

Results

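The genes described here code for 9 cell-surface proteins that are used or have been proposed as targets of therapy in urothelial cancer: NECTIN4, EPCAM, CD276, CD274, F3, MUC1, CD24, CDCP1 and CD109. They were matched by gene symbol to a table of 35993 gene rows, and 8 of the 9 had a row. No row carries the symbol CD24, so CD24 itself was not analysed here. All members were chosen with earlier results of these data known. CDCP1 and CD109 were chosen by their counts, which changed with CD44 level in these same libraries, and the other 7 as known targets. The levels of these 2 genes in the CD44 Low and CD44 High cells are therefore given as a description, with no test.

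Antibodies against surface proteins act on a tumour cell in several ways. An antibody-drug conjugate binds its target, is taken up and releases a toxin inside the cell, so the amount of target on the membrane matters for delivery. NECTIN4, an adhesion protein of cell junctions, is the target of such a conjugate in urothelial cancer. Checkpoint antibodies instead block an inhibitory signal to T cells, for which CD274, also called PD-L1, is the best known ligand. Transcript counts measure the RNA of these targets and not the protein at the membrane.

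RNA was sequenced in 24 libraries from J82 and RT-112, which are human lines of bladder cancer. Each line gave 4 groups of 3 biological replicates: parental cells, a CD44 Low line with low CD44 receptor, a CD44 High line with high CD44 receptor and a CD44v6 line with high levels of CD44v6, the form of the receptor with variant exon 6. CD44 is a receptor for the matrix sugar hyaluronan. The labels give no drug, no genetic change and no method by which the derived lines were obtained, and do not say whether a derived line is 1 clone, so each group stands for 1 cell line grown in replicate.

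Library totals ran from 16752825 to 24419670 counts. Levels below are CPM, the usual count scaled by library total, with totals of all 24 libraries adjusted by the trimmed mean of M-values (TMM). KRT8 and KRT18, keratins of simple epithelia, lay between 1217 and 5070 CPM in every library, and the summed level of 5 leukocyte genes was at most 1.67 CPM. The urothelial factor GATA3 lay between 30.5 and 47.0 CPM in RT-112 but between 0 and 0.859 CPM in J82, and KRT5 was at 0 in every J82 library. Of the mesenchymal markers, VIM lay between 211 and 622 CPM in J82 against at most 2.55 CPM in RT-112, and CDH2 and ZEB1 were also higher in J82. FN1 overlapped between the lines, at 210 to 546 CPM in J82 and 197 to 892 CPM in RT-112. CD44 was at 254 to 309 CPM in J82 CD44 Low, 397 to 489 in parental cells, 708 to 764 in CD44 High and 612 to 1072 in CD44v6. In RT-112 it was at 120 to 152 CPM in CD44 Low, 294 to 347 in parental cells, 351 to 491 in CD44 High and 378 to 516 in CD44v6, so the order of the levels follows the labels. A count of CD44 cannot show which variant exons it carries. Within RT-112, 2 libraries stood apart from their groups. On the first principal component (28.2% of the variance) CD44 High replicate 3 lay at 3.62 while replicates 1 and 2 lay at 38.7 and 36.5. On the same axis CD44v6 replicate 3 lay at 41.0, beyond all 3 CD44 High libraries, while CD44v6 replicates 1 and 2 lay at 13.2 and 11.6. CD44 was at 491 CPM in the former, the highest of its group, and at 378 CPM in the latter, the lowest of its group. Whether these 2 libraries were exchanged was not tested, and each value for RT-112 CD44 High and CD44v6 follows the labels. Changes of the members in these groups are also given without both libraries where that alters a call or a direction, or where the change passed the test. Both were picked after their distance from their groups was seen. Leaving them out narrows the spread within groups, so smaller p-values without them follow in part from that choice.

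The 250 bases before the transcription start of 5 members are shown as examples. The sequences are from RefSeq (build GRCh38.p14), in which 8 of the 9 members had an entry, and each is written 5' to 3' on the gene's strand. F3 lies at chr1:94541760-94542009 on the minus strand, CDCP1 at chr3:45146379-45146628 on the minus strand, CD109 at chr6:73695953-73696202 on the plus strand, CD274 at chr9:5450292-5450541 on the plus strand, and NECTIN4 at chr1:161089559-161089808 on the minus strand. Capitals mark matches on either strand to the motif of AP-1 (TGANTCA), of TEAD factors (GGAATG) or of the E-box bound by ZEB and SNAI factors (CACCTG).
F3: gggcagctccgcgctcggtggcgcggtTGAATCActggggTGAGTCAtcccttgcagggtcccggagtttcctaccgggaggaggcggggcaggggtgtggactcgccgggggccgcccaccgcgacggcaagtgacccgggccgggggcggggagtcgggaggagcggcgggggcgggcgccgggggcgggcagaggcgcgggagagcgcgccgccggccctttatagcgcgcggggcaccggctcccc
CDCP1: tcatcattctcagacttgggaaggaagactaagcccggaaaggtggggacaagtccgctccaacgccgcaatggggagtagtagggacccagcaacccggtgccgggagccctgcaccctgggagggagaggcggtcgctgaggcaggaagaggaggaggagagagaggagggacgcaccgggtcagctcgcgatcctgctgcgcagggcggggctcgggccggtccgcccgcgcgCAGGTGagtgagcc
CD109: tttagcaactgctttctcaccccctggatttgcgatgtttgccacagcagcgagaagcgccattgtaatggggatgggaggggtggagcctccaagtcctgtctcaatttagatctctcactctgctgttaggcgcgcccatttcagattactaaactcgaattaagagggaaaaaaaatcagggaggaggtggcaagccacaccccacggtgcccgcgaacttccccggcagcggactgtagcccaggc
CD274: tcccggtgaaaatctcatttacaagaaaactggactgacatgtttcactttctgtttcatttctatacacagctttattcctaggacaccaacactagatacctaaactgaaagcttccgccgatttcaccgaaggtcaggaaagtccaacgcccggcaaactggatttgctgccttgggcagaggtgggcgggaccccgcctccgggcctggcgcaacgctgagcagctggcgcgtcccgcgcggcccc
NECTIN4: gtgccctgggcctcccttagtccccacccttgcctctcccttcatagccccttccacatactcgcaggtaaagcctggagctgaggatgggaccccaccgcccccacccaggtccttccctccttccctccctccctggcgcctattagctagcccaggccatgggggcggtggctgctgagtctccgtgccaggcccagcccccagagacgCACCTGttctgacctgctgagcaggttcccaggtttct
Of 35116 RefSeq promoters of 300 bases (250 before and 50 after the start), 7.71% held the AP-1 motif, 14% the TEAD motif and 20.6% the E-box. F3 held 2 AP-1 matches, 223 and 210 bases before its start. NECTIN4 held an E-box at position -38 and CDCP1 one on the opposite strand at -14. CD109 and CD274 held none of these 3 motifs in the window. The Sp1 motif (GGGCGG, in 45% of promoters) was matched in all 5, in CD109 only after the start, at position 39, and is not capitalised. Of the members not shown, MUC1 held TEAD and E-box matches and CD276 held none of the 3 capitalised motifs. CD24 held TEAD and E-box matches in its first promoter only, and EPCAM had no entry. A match is a string of letters and was not tested for binding.

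The 2 lines carried different sets of targets. To compare levels between genes, CPM were divided by the median length of each gene's protein-coding transcripts (GENCODE 29). In parental J82 the order on this scale was F3, at 267 ± 9.11 CPM per kb (SD, n = 3), then CD276 (13.8 ± 2.15), CD274 (13.1 ± 1.48), CDCP1 (2.80 ± 0.478), MUC1 (2.47 ± 0.756), EPCAM (1.10 ± 0.271), CD109 (0.830 ± 0.0632) and NECTIN4 (0.0369 ± 0.0323). The gap between CD276 and CD274 and that between CDCP1 and MUC1 were no larger than 1 SD of either neighbour. F3 stood above 98.1% of the genes detected in that group and NECTIN4 above 5.35%. In parental RT-112 the order was EPCAM at 203 ± 12.6 CPM per kb, F3 (55.2 ± 2.74), CD276 (17.0 ± 1.62), CDCP1 (9.12 ± 0.838), NECTIN4 (8.79 ± 0.840), CD109 (1.26 ± 0.144), CD274 (1.14 ± 0.145) and MUC1 (0.701 ± 0.155). There CDCP1 and NECTIN4, and CD109 and CD274, were within 1 SD of each other. EPCAM stood above 97.3% of detected genes in RT-112 and above 24.2% in J82.

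**Figure D1:**
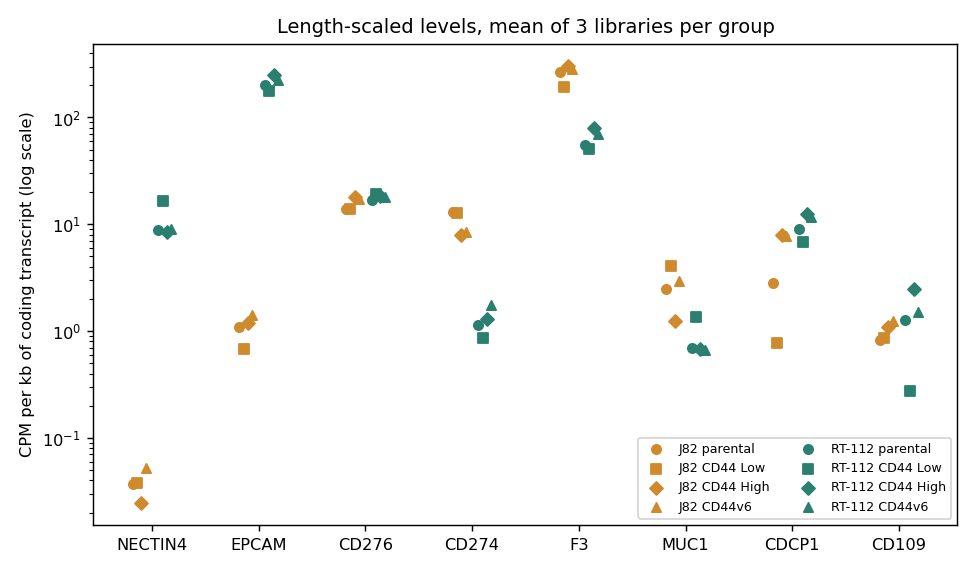
Mean level of each target per group (n = 3 libraries a point) in CPM per kb of coding transcript on a log axis, J82 in orange and RT-112 in green, with a symbol for each of the 4 groups. EPCAM and NECTIN4 are higher in all RT-112 groups than in any J82 group, F3 and CD274 are higher in J82, and CD276 lies between 13.8 and 19.3 CPM per kb in all 8 groups.

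Parental cells were compared between the lines with edgeR's quasi-likelihood test, with p-values adjusted by the Benjamini-Hochberg method over 17438 genes and called under 0.05, as in all tests below. Of 8 members tested, 6 differed, 3 in each direction, where 62% of all genes differed (31% higher and 31% lower in RT-112), so 6 of 8 is not far from the share of all genes. The groups did not overlap for 7 of the 8, and for 73.9% of all genes tested. EPCAM was at 308, 333 and 349 CPM in RT-112 and at 2.18, 1.32 and 1.89 CPM in J82, a log2 difference of 7.5 (SE 0.24, adjusted p = 1.58e-16). NECTIN4 had 530, 741 and 609 counts in RT-112 and 4, 0 and 4 counts in J82 (log2 difference 7.78, SE 0.54, adjusted p = 3.65e-11). The counts in J82 set the precision of that difference, and NECTIN4 did not pass the filter on low counts when J82 was fitted alone. CDCP1, a membrane protein phosphorylated by SRC family kinases, was also higher in RT-112, by 1.70 (SE 0.15, adjusted p = 1.9e-09).

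The opposite order was seen for 3 members. CD274 was at 45.3, 51.0 and 40.7 CPM in parental J82 and at 4.37, 3.40 and 4.13 CPM in parental RT-112, a log2 difference of -3.53 for RT-112 against J82 (SE 0.22, adjusted p = 4.47e-12). F3, tissue factor, which starts the extrinsic clotting cascade and is the target of an approved conjugate in another cancer, lay between 544 and 577 CPM in J82 and between 110 and 121 CPM in RT-112 (-2.27, SE 0.14, adjusted p = 3.38e-12). MUC1, a membrane mucin, was low in both lines, at 1.53 to 2.89 CPM in J82 and 0.567 to 0.836 CPM in RT-112 (-1.81, SE 0.52, adjusted p = 0.0045). CD276, also called B7-H3, differed little between the lines (0.30, SE 0.14, adjusted p = 0.0732), and CD109 gave 0.60 (SE 0.39, adjusted p = 0.19).

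Within each line 6 comparisons were made between the 4 groups, on 15951 genes in J82 and 15645 in RT-112. In CD44 High against CD44 Low, 3 of 5 members tested changed in J82 (F3 higher, CD274 and MUC1 lower), where 15.7% of all genes changed (8.83% higher, 6.9% lower), and the groups did not overlap for any of the 5, where 34.9% of all genes tested had no overlap. In RT-112, 3 of 6 changed (F3 and EPCAM higher, NECTIN4 lower), where 16% of all genes changed (9.01% higher, 7.02% lower). In CD44v6 against CD44 Low, 2 of 5 changed in J82 (F3 higher, CD274 lower; background 9.58%) and 2 of 6 in RT-112 (CD274 higher, NECTIN4 lower; background 16%). The median log2 change of the members tested was 0.40 in J82 and 0.25 in RT-112 for CD44 High against CD44 Low, beside -0.02 and 0.02 for all genes. With 5 or 6 members, chosen with earlier results of these data known, these shares are counts of single genes and not a result about the set. The comparisons against CD44 Low share the CD44 Low libraries.

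Against parental cells fewer members changed. In J82, 1 of 5 changed in CD44 Low (F3 lower; 5.34% of all genes changed), 1 of 5 in CD44 High (CD274 lower; 2.94%) and 2 of 7 in CD44v6 (CDCP1 higher, CD274 lower; 2.6%). CD44 was also higher in J82 CD44v6 than in parental cells. The CDCP1 call there is therefore not fully free of its choice by CD44 level. In RT-112, 1 of 6 changed in CD44 Low (NECTIN4 higher; 3.2%), 0 of 6 in CD44 High (0.511%) and 0 of 8 in CD44v6 (0.614%) with edgeR. Each of these zero counts had 1 member at an unadjusted p under 0.05, and DESeq2 also called 0. Between CD44v6 and CD44 High, edgeR and DESeq2 called 0 members in either line, with 1 of 5 at an unadjusted p under 0.05 in J82 (MUC1, 1.24, adjusted p = 0.474) and 0 of 6 in RT-112. Of all genes, 0% were called there in both lines, with 1536 genes in J82 and 665 in RT-112 at an unadjusted p under 0.05. Without the 2 RT-112 libraries that stood apart, edgeR called 2 members higher in RT-112 CD44 High than in parental cells, F3 (0.66, adjusted p = 0.00407) and EPCAM (0.44, adjusted p = 0.0389). F3 was then lower in CD44v6 than in CD44 High (-0.56, adjusted p = 0.0399). These libraries were picked after seeing the data, and the full fit made none of these calls, so they are given as a description.

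**Figure D2:**
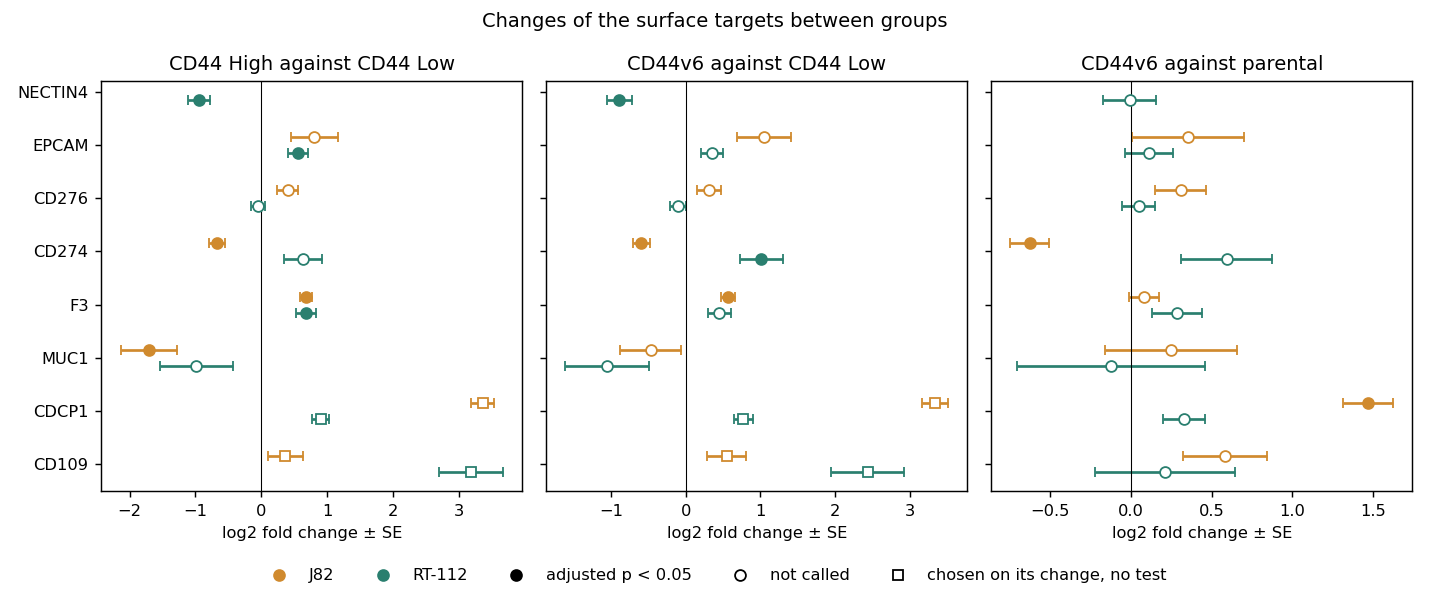
Log2 fold change with its standard error for each target in 3 comparisons, J82 in orange and RT-112 in green. Filled circles passed an adjusted p under 0.05, open circles did not, open squares are CDCP1 and CD109 where no test was made, and NECTIN4 in J82 is absent because it did not pass the filter on low counts. F3 is at 0.67 in J82 and 0.68 in RT-112 for CD44 High against CD44 Low, while CD274 lies at -0.68 in J82 and 0.63 in RT-112.

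Markers of cell state moved with the same groups. The summed level of 4 mesenchymal markers (VIM, CDH2, ZEB1 and FN1, all detected) was 206 to 244 CPM in RT-112 CD44 Low, 418 to 768 CPM in CD44 High and 525 to 899 CPM in CD44v6. In J82 it was 872 to 1114 CPM in CD44 Low, 1201 to 1382 CPM in CD44 High and 1109 to 1439 CPM in CD44v6, the last of which overlapped CD44 Low. The summed level of 8 urothelial and epithelial markers was 6472 to 7879 CPM in J82 CD44 Low and 8756 to 10641 CPM in CD44 High, whereas in RT-112 it was 12288 to 14536 and 9887 to 11215 CPM. In RT-112 VIM did not exceed 2.55 CPM, and FN1, fibronectin, made up most of the sum. Of 4 fibroblast markers DCN was at 0 in every library, and the summed level, mostly LUM in RT-112, was 215 to 272 CPM in RT-112 CD44 Low and 120 to 184 CPM in CD44 High, and 90.9 to 123 against 42.6 to 48.5 CPM in J82. The part of these markers in the changes of the surface targets was not tested. In such bulk libraries, fewer cells that express a gene and less RNA per cell cannot be told apart.

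NECTIN4 RNA was near 0 in J82 and of middle level in RT-112, where per length it stood above 54.6% of detected genes in parental cells. Across the 12 J82 libraries it had between 0 and 10 counts. In RT-112 it was at 30.1, 34.0 and 28.3 CPM in parental cells, at 68.1, 58.8 and 47.6 CPM in CD44 Low, at 24.3, 34.7 and 29.2 CPM in CD44 High and at 38.6, 25.9 and 30.0 CPM in CD44v6. All 3 CD44 Low libraries lay above the other 9. NECTIN4 rose by 0.88 in CD44 Low against parental cells (log2 scale, SE 0.16, adjusted p = 0.0133), or 1.84-fold. CD44 High was below CD44 Low by 1.93-fold (log2 change -0.95, SE 0.16, adjusted p = 0.00273) and CD44v6 was below it by 1.85-fold (-0.89, SE 0.16, adjusted p = 0.00436). Without the 2 libraries that stood apart these 2 changes were -0.95 and -0.85. The call against parental cells was lost in 4 of the 6 fits that each left out 1 library (parental replicate 1 or 3, CD44 Low replicate 1 or 2; adjusted p up to 0.0706). The other 2 calls held in all 6.

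EPCAM, a homophilic adhesion protein of epithelia, went the other way in RT-112. It was at 326, 271 and 262 CPM in CD44 Low, at 484, 416 and 327 CPM in CD44 High and at 347, 312 and 441 CPM in CD44v6. The CD44 High libraries lay above those of CD44 Low, though replicate 3 only just, and CD44v6 overlapped both. The change in CD44 High against CD44 Low was 0.55 (SE 0.15, adjusted p = 0.0254), or 1.46-fold, and it was 0.68 (adjusted p = 0.00106) without the 2 libraries that stood apart. The call was lost without CD44 Low replicate 2 or 3 or CD44 High replicate 1 (adjusted p up to 0.122) and in the fit on the 2 groups alone (adjusted p = 0.0599). In J82 EPCAM had 14 to 25 counts in CD44 Low and 35 to 47 in CD44 High (0.80, SE 0.36, adjusted p = 0.152). The difference of 0.28 between the lines (J82 minus RT-112) had an SE of 0.35 and an adjusted p of 0.703.

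MUC1 had few counts in every library. In J82 it was at 4.96, 3.46 and 3.26 CPM in CD44 Low (57 to 89 counts), at 0.99, 0.588 and 1.98 CPM in CD44 High (12 to 38 counts) and at 1.99, 3.87 and 2.58 CPM in CD44v6. CD44 High lay below CD44 Low with no overlap, by 3.28-fold (log2 change -1.71, SE 0.42, adjusted p = 0.0161), a call lost without CD44 Low replicate 1 or CD44 High replicate 1 or 2 (adjusted p up to 0.0673). In RT-112 MUC1 had 4 to 48 counts in a library and gave -0.98 (SE 0.56, adjusted p = 0.256), or -0.83 without the 2 libraries that stood apart.

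For CD24, a small mucin-like protein that signals to macrophages, the table holds only rows named for copies elsewhere in the genome. The row CD24P4 was looked at after its values were seen: 241 of the 243 bases of its transcript (99.2%, GENCODE 29) match a CD24 transcript, so its counts may belong to either locus and are uncertain. CD24P4 was at 414, 458 and 510 CPM in parental RT-112 and at 26.2, 23.1 and 33.9 CPM in parental J82 (log2 difference 4.05, SE 0.24, adjusted p = 2e-12). Within RT-112 its level was 431 to 477 CPM in CD44 Low, 492 to 648 CPM in CD44 High (0.35, SE 0.11, adjusted p = 0.0446) and 560 to 700 CPM in CD44v6 (0.42, SE 0.11, adjusted p = 0.0237). Both groups lay above CD44 Low with no overlap, and without the 2 libraries that stood apart the changes were 0.44 (adjusted p = 0.00407) and 0.31 (adjusted p = 0.0409). In J82 the sign was opposite and neither change was called. CD44 High gave -0.65 (SE 0.26, adjusted p = 0.115) and CD44v6 gave -0.65 (SE 0.26, adjusted p = 0.151), each against CD44 Low. The differences between the lines (J82 minus RT-112) were called, at -0.98 (adjusted p = 0.0409; 10.7% of all genes) and -1.08 (adjusted p = 0.0316; 7.52%).

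**Figure D3:**
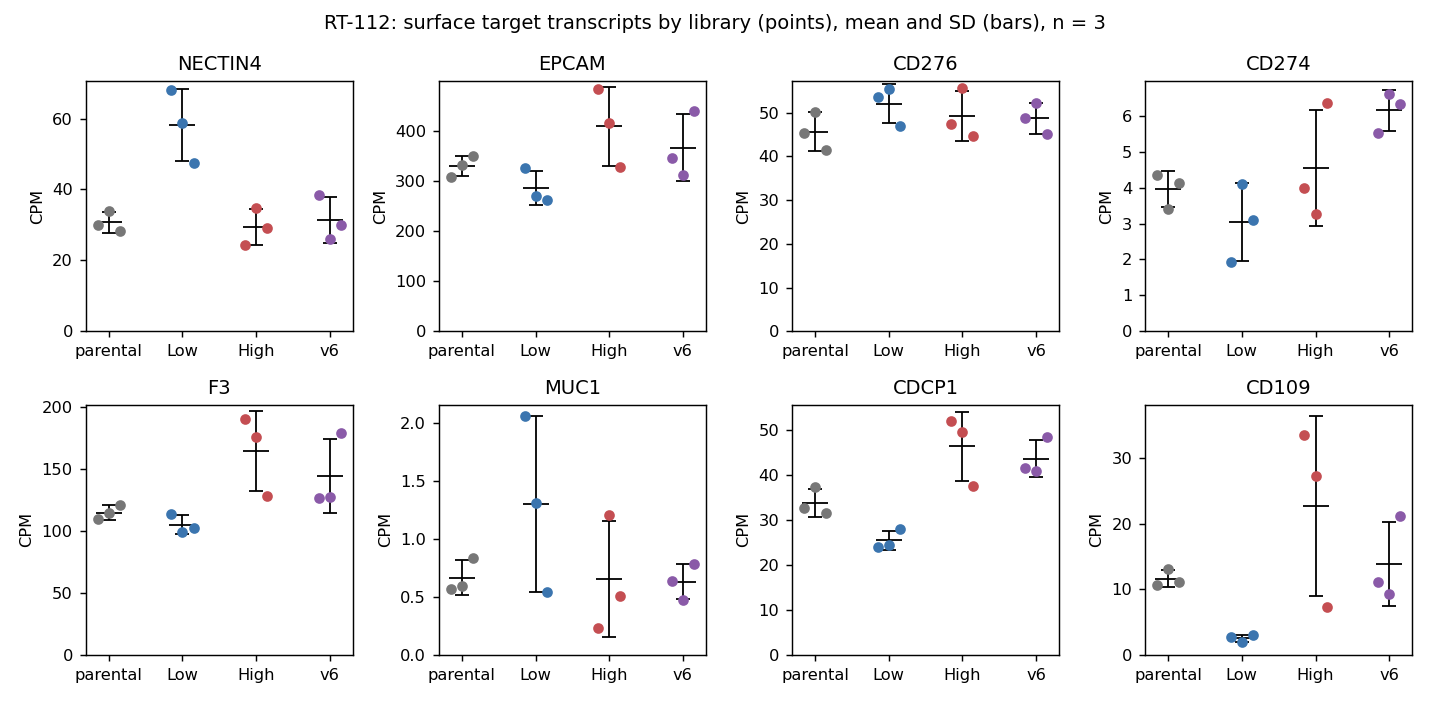
CPM of the 8 measured targets in RT-112 for each of 12 libraries (points), with the mean and SD of 3 replicates (bars), by group on the horizontal axis. NECTIN4 is highest in all 3 CD44 Low libraries, and for CD109 replicate 3 of CD44 High, at 7.29 CPM, lies far below replicates 1 and 2.

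CD274 fell in the CD44 High and CD44v6 cells of J82 and rose in the CD44v6 cells of RT-112, each against CD44 Low. In J82 it was at 45.3, 51.0 and 40.7 CPM in parental cells, at 40.5, 46.8 and 46.6 CPM in CD44 Low, at 29, 28.1 and 26.2 CPM in CD44 High and at 25.8, 29 and 33.7 CPM in CD44v6. The CD44 High and CD44v6 libraries all lay below the parental and CD44 Low libraries. Against CD44 Low the change was -0.68 in CD44 High (SE 0.12, adjusted p = 0.00192) and -0.59 in CD44v6 (SE 0.12, adjusted p = 0.00646). Against parental cells it was -0.71 in CD44 High (SE 0.12, adjusted p = 0.00652) and -0.63 in CD44v6 (SE 0.12, adjusted p = 0.018). The last of these was lost without replicate 1 or 2 of either group (adjusted p up to 0.108) and in the fit on the 2 groups alone (adjusted p = 0.0708). In that kind of fit the change in CD44v6 against CD44 Low had an adjusted p of 0.0503.

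In RT-112 CD274 was lower than in J82, by about an order of magnitude in parental and CD44 Low cells and by less in CD44 High and CD44v6. It had 45 to 137 counts in an RT-112 library. It was at 4.37, 3.40 and 4.13 CPM in parental cells, at 1.93, 4.10 and 3.09 CPM in CD44 Low, at 4, 3.28 and 6.36 CPM in CD44 High and at 5.52, 6.63 and 6.34 CPM in CD44v6. All CD44v6 libraries lay above those of CD44 Low and of parental cells, whereas CD44 High overlapped both. Against parental cells the change in CD44v6 was 0.59 (SE 0.28, adjusted p = 0.342) and was not called. CD274 was 2.02-fold higher in CD44v6 than in CD44 Low (log2 change 1.01, SE 0.29, adjusted p = 0.0318), a call lost without CD44 Low replicate 1 or 3 or CD44v6 replicate 2 or 3 (adjusted p up to 0.115). Without the 2 libraries that stood apart it was 0.99 (adjusted p = 0.0476). It was 0.63 higher in CD44 High (SE 0.29, adjusted p = 0.161), or 0.29 without those 2 libraries. The difference between the lines was itself called: -1.28 for CD44 High against CD44 Low (J82 minus RT-112, SE 0.30, adjusted p = 0.00752), where 10.7% of all genes and 1 of 6 members differed. For CD44v6 against CD44 Low it was -1.62 (SE 0.29, adjusted p = 0.00139), where 7.52% of all genes and 1 of 6 members differed. Both held in all 12 fits without 1 library, and without the 2 RT-112 libraries they were -0.94 (adjusted p = 0.0376) and -1.60 (adjusted p = 0.00119).

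CD276 is a B7 family member studied as a target in its own right. Its levels overlapped between the 2 lines, with 29.3 to 52.2 CPM in J82 and 41.5 to 55.6 CPM in RT-112. In J82 it was at 50.9, 43.8 and 52.2 CPM in CD44 High and at 41.2, 29.3 and 41.2 CPM in CD44 Low. These groups did not overlap, and the difference of 0.40 (SE 0.16, adjusted p = 0.103) did not pass the threshold. In RT-112 the same comparison gave -0.05 (SE 0.10, adjusted p = 0.793), or 0.01 (adjusted p = 0.959) without the 2 libraries that stood apart.

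F3 passed the test for a higher level in CD44 High than CD44 Low in both lines. In J82 it was at 545, 577 and 544 CPM in parental cells, at 425, 376 and 395 CPM in CD44 Low, at 675, 649 and 578 CPM in CD44 High and at 622, 521 and 616 CPM in CD44v6. The CD44 Low libraries were the 3 lowest of the line. F3 fell by 0.48 in CD44 Low against parental cells (log2 scale, SE 0.09, adjusted p = 0.0105), or 1.39-fold, a call lost without parental replicate 2 (adjusted p = 0.0569). It was 1.60-fold higher in CD44 High (0.67, SE 0.09, adjusted p = 0.000359) and 1.47-fold higher in CD44v6 (0.56, SE 0.09, adjusted p = 0.00192) than in CD44 Low, while CD44 High and CD44v6 gave 0.19 (adjusted p = 0.34) and 0.08 (adjusted p = 0.668) against parental cells.

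In RT-112 F3 was at 110, 115 and 121 CPM in parental cells, at 114, 99.2 and 103 CPM in CD44 Low, at 190, 176 and 129 CPM in CD44 High and at 127, 128 and 179 CPM in CD44v6. Each CD44 High and CD44v6 library lay above all parental and CD44 Low libraries. The 129 CPM and the 179 CPM belong to the 2 libraries that stood apart. The change in CD44 High against CD44 Low was 0.68 (SE 0.15, adjusted p = 0.0106), or 0.83 (adjusted p = 8.84e-05) without those 2 libraries, and it gave an adjusted p of 0.0574 without CD44 High replicate 1. Against parental cells CD44 High gave 0.52 (SE 0.15, adjusted p = 0.188) with all libraries and 0.66 (adjusted p = 0.00407) without the 2. CD44v6 was not called against CD44 Low (0.45, SE 0.15, adjusted p = 0.0627) or against parental cells (0.29, SE 0.15, adjusted p = 0.405). Without the 2 libraries these changes were 0.27 (adjusted p = 0.0656) and 0.11 (adjusted p = 0.658). The change in CD44 High against CD44 Low differed between the lines by 0.02 (SE 0.19, adjusted p = 1).

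**Figure D4:**
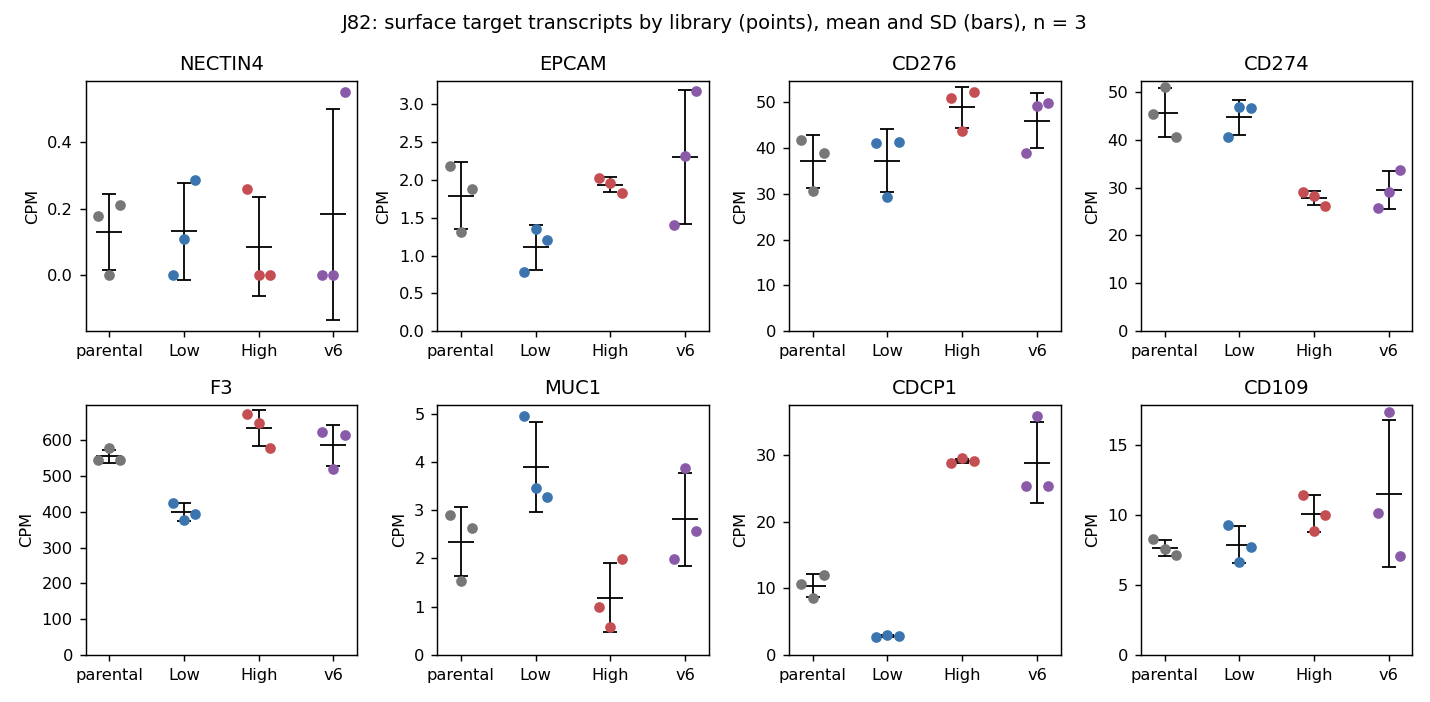
CPM of the 8 measured targets in J82 for each of 12 libraries (points), with the mean and SD of 3 replicates (bars), by group on the horizontal axis. F3 and CDCP1 are lowest in all 3 CD44 Low libraries, CD274 is lower in CD44 High and CD44v6 than in the other groups, and NECTIN4 does not exceed 0.548 CPM.

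CDCP1 was ordered like CD44 in both lines, which is what it was chosen for. In J82 it was at 10.7, 8.49 and 12 CPM in parental cells, at 2.73, 3.03 and 2.81 CPM in CD44 Low and at 28.8, 29.6 and 29.1 CPM in CD44 High, a 10.2-fold span between the last 2 groups. In RT-112 it was at 32.6, 37.4 and 31.5 CPM in parental cells, at 24, 24.5 and 28 CPM in CD44 Low and at 52, 49.7 and 37.7 CPM in CD44 High, a 1.86-fold span (log2 difference 0.90, or 1.02 without the 2 libraries that stood apart). The groups did not overlap in either line, and the lowest CD44 High library of RT-112 was replicate 3.

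The comparison of CD44v6 with parental cells holds neither the CD44 Low nor the CD44 High libraries and was tested, though the spread was estimated over all groups. CDCP1 was at 25.5, 36.0 and 25.3 CPM in J82 CD44v6, all above the parental libraries, an increase of 2.77-fold (log2 change 1.47, SE 0.16, adjusted p = 0.00124) that held in all 6 fits without 1 library. In RT-112 CD44v6 it was at 41.7, 41.0 and 48.5 CPM, also above all parental libraries, with a change of 0.33 (SE 0.13) that did not pass (adjusted p = 0.25), or 0.25 (adjusted p = 0.352) without the 2 libraries that stood apart. The change was larger in J82 than in RT-112 by 1.10 (SE 0.21, adjusted p = 0.027), where 0.138% of all genes and 1 of 8 members differed. That call was lost in 6 of the 12 fits without 1 library (J82 parental replicate 1 or 2, RT-112 parental replicate 2 or any RT-112 CD44v6 replicate; adjusted p up to 0.109) and with the replicate number as a block (adjusted p = 0.0654). In the fit without the 2 RT-112 libraries that stood apart the difference was 1.18 (adjusted p = 0.0312). All CD44v6 libraries had more CD44 counts per total than the parental libraries of their line, so this comparison is not fully free of the choice of CDCP1.

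CD109, a GPI-anchored protein that binds the TGF-beta receptor, showed its span in RT-112. There it was at 10.6, 13.1 and 11.1 CPM in parental cells, at 2.70, 1.98 and 2.98 CPM in CD44 Low, at 33.6, 27.3 and 7.29 CPM in CD44 High and at 11.1, 9.33 and 21.2 CPM in CD44v6. All CD44 Low libraries lay below the other 9, and replicate 3 of CD44 High lay below every parental library. The fitted span from CD44 Low to CD44 High was 9.07-fold (log2 difference 3.18, no test), or 3.61 on the log2 scale without the 2 libraries that stood apart. From CD44 Low to CD44v6 it was 2.44, or 2 without them. In J82 CD109 was at 6.64 to 9.31 CPM in CD44 Low, 8.82 to 11.4 CPM in CD44 High and 7.07 to 17.3 CPM in CD44v6, and these ranges overlapped. The tested comparison of CD44v6 with parental cells gave 0.58 for J82 (SE 0.26, adjusted p = 0.24) and 0.21 for RT-112 (SE 0.43, adjusted p = 0.874). Without the 2 libraries that stood apart the value for RT-112 turned to -0.22 (adjusted p = 0.676).

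In the other tests of a difference between the lines (J82 minus RT-112), 0 of 6 members were called for CD44 Low against parental cells (1.06% of all genes), for CD44 High against parental cells (0.241%) and for CD44v6 against CD44 High (0.00573%) with edgeR, and DESeq2 also called 0. At an unadjusted p under 0.05 there were 0, 1 and 0 members. For CD44 Low against parental cells the largest of these by size was NECTIN4, at -0.96 with an SE of 1.30, which its counts in J82 leave too imprecise to read.

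Genes of the pathways around each target were followed in 8 lists of 104 genes in all, chosen with earlier results of these data known. In CD44 High against CD44 Low, 80 of the 104 could be tested in both lines. In J82, 33 list genes were called and in RT-112, 42. The 13 called in both lines were 39.4% of the former and 31% of the latter. Over all genes, 550 were called in both lines, which is 21.9% of the genes called in J82 and 21.9% of those called in RT-112. Of the 13 list genes 8 had the same sign and 5 opposite signs, beside 390 and 160 of the 550. With 13 genes chosen in view of these data, this is a count and not a difference from all genes. Without the 2 RT-112 libraries that stood apart, 37 of the 42 list genes called in RT-112 were still called, 0 changed sign and 8 more were called. The counts of each list below stand beside 8.83% of all genes higher and 6.9% lower in J82, and 9.01% and 7.02% in RT-112. With lists chosen in view of these data, they describe single genes and are not a result about a pathway.

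Around EPCAM, the list of partners and processing enzymes had 2 genes higher and 1 lower of 7 tested in J82 (median log2 change 0.35, all genes -0.02) and 1 higher and 2 lower of 10 in RT-112 (median -0.15, all genes 0.02). The tight junction gene CLDN1 was higher in RT-112 CD44 High (0.89, adjusted p = 0.00122). SPINT2, an inhibitor of membrane serine proteases, and FHL2, which binds the EPCAM intracellular domain, were higher in J82 CD44 High, by 1.44 (adjusted p = 0.000129) and 1.48 (adjusted p = 1.12e-06). In the parental lines 7 of 10 genes of this list were higher in RT-112 and 0 lower (median log2 difference 4.63, all genes 0.00). Of all genes 31% were higher and 31% lower. All 10 passed the filter on low counts in RT-112 but only 7 in J82, so this count and median lean toward genes high in RT-112.

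The NECTIN family list had 0 of 7 genes called in J82 with edgeR (0 at an unadjusted p under 0.05, median -0.09) and 1 higher and 2 lower of 7 in RT-112 (median 0.05). NECTIN3, another adhesion protein of the family, was lower in the CD44 High cells of RT-112, with a log2 change of -1.84 (SE 0.31, adjusted p = 0.00225), at 7.68 ± 3.12 against 28.4 ± 1.26 CPM. ADAM10, a sheddase, was lower (-0.67, adjusted p = 0.0278), and AFDN, which links nectins to actin, was higher (0.28, adjusted p = 0.0315).

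Around MUC1, the list of membrane mucins and O-glycosylation enzymes had 3 of 8 genes higher and 0 lower in J82 (median 0.27) and 0 higher and 7 of 11 lower in RT-112 (median -0.46). Of all genes, 8.83% were higher in J82 and 7.02% lower in RT-112, and this list was chosen with earlier results known. GALNT1, which starts O-glycan chains, was higher in J82 CD44 High (0.95, adjusted p = 9.08e-05) and lower in RT-112 CD44 High (-0.96, adjusted p = 0.00341), and the difference of 1.94 between the lines was called (SE 0.22, adjusted p = 5.01e-06). GCNT1, which branches such chains, was higher in J82 (1.04, adjusted p = 0.00229), and the mucin MUC20 was lower in RT-112 (-1.38, adjusted p = 0.00154).

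For CD274 the list of B7 relatives and interferon signalling had 3 genes higher and 3 lower of 12 in J82 (median 0.11) and 0 higher and 2 lower of 14 in RT-112 (median -0.03). IFNGR2, a chain of the interferon-gamma receptor, was higher in J82 CD44 High (0.77, SE 0.14, adjusted p = 0.00292) and lower in RT-112 CD44 High (-0.48, SE 0.12, adjusted p = 0.0194). The kinase JAK1, which acts below that receptor, had the same pattern (0.49, adjusted p = 0.00202, and -0.45, adjusted p = 0.00786). The differences between the lines were called for both, at 1.27 (adjusted p = 0.000224) and 0.97 (adjusted p = 7.89e-05). They have the opposite sign to that of CD274. In J82 PDCD1LG2, the second ligand of the PD-1 receptor, was higher in CD44 High (0.52, adjusted p = 0.0144), while IFNGR1 (-0.42, adjusted p = 0.0138) and the NK cell receptor ligand NCR3LG1 (-0.63, adjusted p = 0.00513) were lower. CMTM6, which keeps PD-L1 at the membrane, was at 88.1 ± 6.48 CPM in J82 CD44 Low and 92.9 ± 7.82 CPM in CD44 High and was not called.

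The tissue factor and coagulation list had 4 genes higher and 1 lower of 7 in J82 (median 0.51) and 3 higher and 2 lower of 8 in RT-112 (median 0.25). TFPI, the main inhibitor of the tissue factor complex, was lower in CD44 High in both lines, at 125 ± 6.27 against 196 ± 15.4 CPM in J82 (-0.63, SE 0.09, adjusted p = 0.000427) and 56.4 ± 14.9 against 124 ± 18.3 CPM in RT-112 (-1.10, SE 0.21, adjusted p = 0.00427). F3 had the opposite sign in both. PROCR, the endothelial protein C receptor, was higher in both, by 0.63 (adjusted p = 0.0163) and 0.65 (adjusted p = 0.00938). Thrombomodulin, THBD, was higher in RT-112 (0.82, adjusted p = 0.00641). TFPI2, an inhibitor related to TFPI, was higher in J82 (0.67, adjusted p = 0.00765) and lower in RT-112 (-1.05, adjusted p = 0.00854), and the lines differed by 1.75 (adjusted p = 0.000482).

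For CDCP1 the list of kinases and proteases had 2 genes higher and 1 lower of 7 in J82 (median 0.16) and 2 higher and 1 lower of 8 in RT-112 (median -0.02). PLAU, the urokinase protease that activates plasminogen, rose from 20.4 ± 0.633 CPM in CD44 Low to 71.6 ± 10.5 CPM in CD44 High of J82 (1.81, SE 0.11, adjusted p = 3.8e-07), and the SRC family kinase YES1 was lower there (-0.38, adjusted p = 0.00473). PRKCD, a kinase that binds phosphorylated CDCP1, was lower in RT-112 CD44 High (-0.68, adjusted p = 0.00338). PRSS23 was higher in both lines (0.35, adjusted p = 0.0327, and 0.47, adjusted p = 0.0395), with 0.29 in RT-112 (adjusted p = 0.0359) when the 2 libraries that stood apart were left out.

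Around CD109, the list of TGF-beta and interleukin-6 family partners had 5 genes higher and 1 lower of 9 in J82 (median 0.58) and 3 higher and 0 lower of 9 in RT-112 (median 0.29). TGFBR2, a TGF-beta receptor chain, was higher in J82 CD44 High (1.62, SE 0.17, adjusted p = 4.43e-05), at 12.2 ± 0.901 against 3.99 ± 0.372 CPM, and TGFBR1 was lower (-0.56, adjusted p = 0.00312). The ligand TGFB1 was higher in both lines (1.15, adjusted p = 0.00804, and 0.52, adjusted p = 0.0175), as was SMURF2, a ubiquitin ligase of the receptor (0.74, adjusted p = 0.000268, and 0.55, adjusted p = 0.00448).

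Among 30 other antibody targets, 6 were higher and 1 lower of 25 tested in J82 (median 0.10) and 5 higher and 11 lower of 27 in RT-112 (median -0.28). Of all genes, 8.83% were higher and 6.9% lower in J82, and 9.01% and 7.02% in RT-112. MET, the hepatocyte growth factor receptor, was higher in CD44 High in both lines (0.95, adjusted p = 1.85e-06, and 0.42, adjusted p = 0.0234). In J82 the pseudokinase receptors PTK7 (1.64, adjusted p = 9.2e-07) and ROR1 (1.27, adjusted p = 8.6e-05) were higher. In RT-112 the receptor kinases AXL and EGFR were higher, by 1.94 (SE 0.33, adjusted p = 0.00247) and 0.82 (SE 0.12, adjusted p = 0.000912). The carcinoembryonic adhesion proteins CEACAM5 and CEACAM6 were lower there, with changes of -1.82 (SE 0.20, adjusted p = 0.000182) and -1.87 (SE 0.22, adjusted p = 0.000266). CEACAM6 was at 283 ± 26 CPM in RT-112 CD44 Low and 75.6 ± 19 CPM in CD44 High, and both CEACAM genes had 0 counts in all J82 libraries. ERBB3 was higher in J82 (0.60, adjusted p = 0.0102) and lower in RT-112 (-0.44, adjusted p = 0.0106), and GPNMB was lower in both lines (-0.56, adjusted p = 0.0441, and -0.99, adjusted p = 0.0419). The RT-112 call for GPNMB was lost without the 2 libraries that stood apart (adjusted p = 0.0556).

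As a description of which genes shared a pattern with each target, log2 CPM were correlated over the 12 libraries of a line, which share cell line, depth and groups. In J82 the genes most like CDCP1 of 9954 were EPHB2 and VAV2 (r = 0.993 for both), those most like F3 were ZWINT and WNT5B (r = 0.973 for both), and those most like CD274 were SDC2 (r = 0.962) and NPPB (r = 0.942). In RT-112 the genes most like NECTIN4 of 9895 were MFSD6 (r = 0.961) and KRT16 (r = 0.954), those most like EPCAM were FUT8 (r = 0.978) and CCNC (r = 0.962), and those most like CD109 were BASP1 and MYBL2 (r = 0.978 for both). Among the targets themselves EPCAM and F3 had an r of 0.954 in RT-112 and 0.590 in J82. F3 and CDCP1 had 0.879 in RT-112 and 0.867 in J82, while CD274 and CDCP1 had 0.500 in RT-112 and -0.832 in J82. CDCP1 and CD109 had an r of 0.928 in RT-112 and 0.555 in J82. Both were chosen for a change with CD44 level in these libraries, so a pattern shared between them follows in part from that choice. CD276 had the weakest nearest genes, USP20 (r = 0.869) and PRKCSH (r = 0.851) in RT-112.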

How the data were processed

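RNA was sequenced in 24 libraries of J82 and RT-112 (8 groups of 3). The authors deposited 1 table of counts per gene symbol, whole numbers with no normalization. Per the submitters' processing notes, HISAT2 and StringTie were used with build GRCh37; the counting step, annotation and use of strand are not given in the sources used here. The labels describe replicates as biological, without saying how cultures were kept apart, so p-values measure the spread between these libraries. No 2 replicates agreed within sampling noise (chi-square per degree of freedom 6.03 to 58.7 over 24 pairs).

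Counts were tested in R 4.3.3 with edgeR 4.0.16: filterByExpr, TMM scaling, and the quasi-likelihood test with group as the only term, per line over its 12 libraries, or over all 24 for parental cells between lines and for differences between lines. Tests were two-sided, and p-values were adjusted with Benjamini-Hochberg over all genes tested. Precision at 16752825 to 24419670 counts a library is limited by few counts for some genes (MUC1, CD274 in RT-112). The spread between libraries limits it for these genes too, as for CD274 in RT-112 CD44 Low (45, 91 and 57 counts), and for the others. Python 3.11.15 with matplotlib 3.10.9 drew the figures. Scripts were tested on simulated data.

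The members and gene lists were chosen with earlier results of these data known. CDCP1 and CD109 were not tested in any comparison that holds CD44 High or CD44 Low libraries, which is stricter than the design as first written. Named genes are the members and CD44, the called list genes with the largest changes (up to 2 in each direction, average log2 CPM of at least 3) or called in both lines, and for each member the 2 genes with the highest correlation. One list gene that the rule names is counted in its list and not reported here. Genes named outside this rule are CD24P4, CMTM6 and the cell markers. Levels per length used median lengths of coding transcripts from GENCODE 29, which may differ from the annotation behind the counts.

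Replicate numbers are shared between groups, and the labels do not say what they mark. The deviations from the group mean of libraries with the same number were correlated over 0.1 in all 3 pairs only for J82 CD44v6 against CD44 High (0.113, 0.109 and 0.252). Alternatives were median-of-ratios factors, no filter, the DESeq2 1.42.0 Wald test, a replicate block, the compared groups alone, leaving out each library, and, added after seeing the data, leaving out RT-112 CD44 High replicate 3 and CD44v6 replicate 3 together.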

Additional observations from a re-analysis of the deposited data

Results flagged for a closer look

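For 3 results of the members the effect of the same contrast differed between the 2 lines by the test of the difference itself (edgeR, adjusted over 17438 genes). CDCP1 changed more in J82 than in RT-112 for CD44v6 against parental cells, by 1.10 on the log2 scale (adjusted p = 0.027). That call was lost with a replicate block (adjusted p = 0.0654) and in 6 of 12 fits without 1 library. All CD44v6 libraries had more CD44 counts per total than the parental libraries of their line. CDCP1 was chosen for its change with CD44 level, so this test is not fully free of that choice. CD274 differed by -1.28 for CD44 High against CD44 Low (adjusted p = 0.00752) and by -1.62 for CD44v6 against CD44 Low (adjusted p = 0.00139), J82 minus RT-112. CD274 had 45 to 137 counts in an RT-112 library and 487 to 1018 in a J82 library.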

How the results depend on the processing

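Of 24 member results that passed the threshold, 0 reversed under any alternative run; over 290 combinations of result and setting, 259 stayed past it and 31 did not. Among 92 results that did not pass, 15 of 1278 combinations passed. The number of members called moved by over 1.5 times in these cases. On the compared groups alone it was 1 for J82 CD44v6 against CD44 Low and 1 for J82 CD44v6 against parental cells (2 each in the full fit). With no filter it was 1 for RT-112 CD44v6 against CD44 Low (2 in the full fit). Without RT-112 CD44 High replicate 3 and CD44v6 replicate 3 it was 2 for RT-112 CD44 High against parental cells and 1 for CD44v6 against CD44 High (0 each in the full fit). For the difference between lines in CD44v6 against parental cells it was 2 with DESeq2, 2 on the compared groups alone and 0 with the replicate block (CDCP1 adjusted p = 0.0654), against 1 in the full fit. The block otherwise changed no count of members by over 1.5 times; under it 0 members were called for J82 CD44v6 against CD44 High. Leaving out 1 library gave counts from 0 to 1 for J82 CD44 Low against parental (0 without parental replicate 2, F3 adjusted p = 0.0569), 1 to 2 for J82 CD44v6 against parental, 0 to 1 for RT-112 CD44 Low against parental, 0 to 1 for RT-112 CD44 High against parental (1, F3, without CD44 High replicate 3), 1 to 3 for RT-112 CD44 High against CD44 Low (1 without CD44 High replicate 1), 1 to 2 for RT-112 CD44v6 against CD44 Low and 0 to 2 for the difference between lines in CD44v6 against parental. The causes were not tested, beyond fewer samples in these fits. Counts under about 50 in a library, as for MUC1, limit what could be detected.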
